A study of Homo sapiens with 8 samples.

Results

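The genes described here are those for the proteins of the mitochondrial ribosome whose GENCODE symbol is MRPL or MRPS followed by a number and, in some, a letter. 78 of the 19118 genes in the table of normalized counts met this rule, 49 with an MRPL symbol for the large subunit and 29 with an MRPS symbol for the small subunit, on 21 chromosomes. All 78 were abundant enough to be tested, and the lowest count of any of them in any library was 184 reads.

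The mitochondrial ribosome sits in the mitochondrial matrix and translates the few messenger RNAs of the mitochondrial genome, all of which encode subunits of the respiratory chain and the ATP synthase. Its ribosomal RNAs are transcribed inside the organelle, but all of its proteins are encoded by nuclear genes, made in the cytosol and imported. Some descend from the proteins of a bacterial ribosome, and others have no bacterial counterpart and were added in the course of mitochondrial evolution. A ribosome is assembled in defined proportions, so proteins left without a partner are in general degraded in the matrix. NRF1, YY1 and ETS-family factors such as GABP are known for binding near the starts of many nuclear genes for mitochondrial proteins.

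HEK293T cells derive from human embryonic kidney and express the large T antigen of SV40. Total RNA was sequenced from 4 Control cultures that received vehicle and from 4 cultures that received 100 µM 3-deazaneplanocin A (DZNep) for 48 h, an adenosine analog that blocks S-adenosylhomocysteine hydrolase and through it most cellular methylation reactions. All 8 cultures were of this 1 line, and the only stated difference between the groups was the drug. The libraries held 25043058 to 44902779 counted reads. VIM, CDH2, NEFL and NEFM, which mark this line, averaged at least 3222 normalized counts in either group and PAX2 240.3 or more, whereas the erythroid gene HBB had no read and the hepatocyte gene ALB at most 8 reads in any library. The leukocyte gene PTPRC averaged 53.7 normalized counts in Control and 68.3 in DZNep, the endothelial gene PECAM1 162.9 and 143.2, and the epithelial gene EPCAM 53.0 and 104.8, the last with a log2 fold change of 0.96 (edgeR adjusted p = 0.0237), and their part in the results was not tested. The share of reads from mitochondrially encoded genes ran from 3.02 to 13.7% among the Control and from 4.25 to 10.1% among the DZNep libraries, and in both groups replicates 1 and 4 had the higher shares. The bulk RNA cannot tell fewer cells from less RNA per cell, and every value below is relative to the other genes of the same library.

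Single mitoribosomal protein transcripts were higher or lower in DZNep, and the median of the set lay near 0. A gene was called changed when its adjusted p in edgeR's quasi-likelihood test, with Benjamini-Hochberg adjustment over the 19171 genes tested, was under 0.05. Of the 78 members 14 were called higher (17.9%) and 9 lower (11.5%), against 19.1% and 21.8% of all genes tested, and 55 were not called. In either direction 40.8% of all genes tested were called. The median log2 fold change of the members was 0.07 (SD over the 4 replicate pairs 0.11), that of all genes tested -0.03, and without DZNep replicate 4 the members' median was -0.13. The members ran from -1.14 to 1.19 on the log2 scale, and the interquartile range of 0.74 lay beside 1.09 over all genes. A log2 fold change under 0.5 in size was seen in 64.1% of the members and 46.6% of all genes tested. The members were also more abundant than the tested genes as a whole, with a median of 6.10 against 3.70 on edgeR's log2 CPM scale, and the spread of fold changes at matched abundance was not compared.

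**Figure D1:**
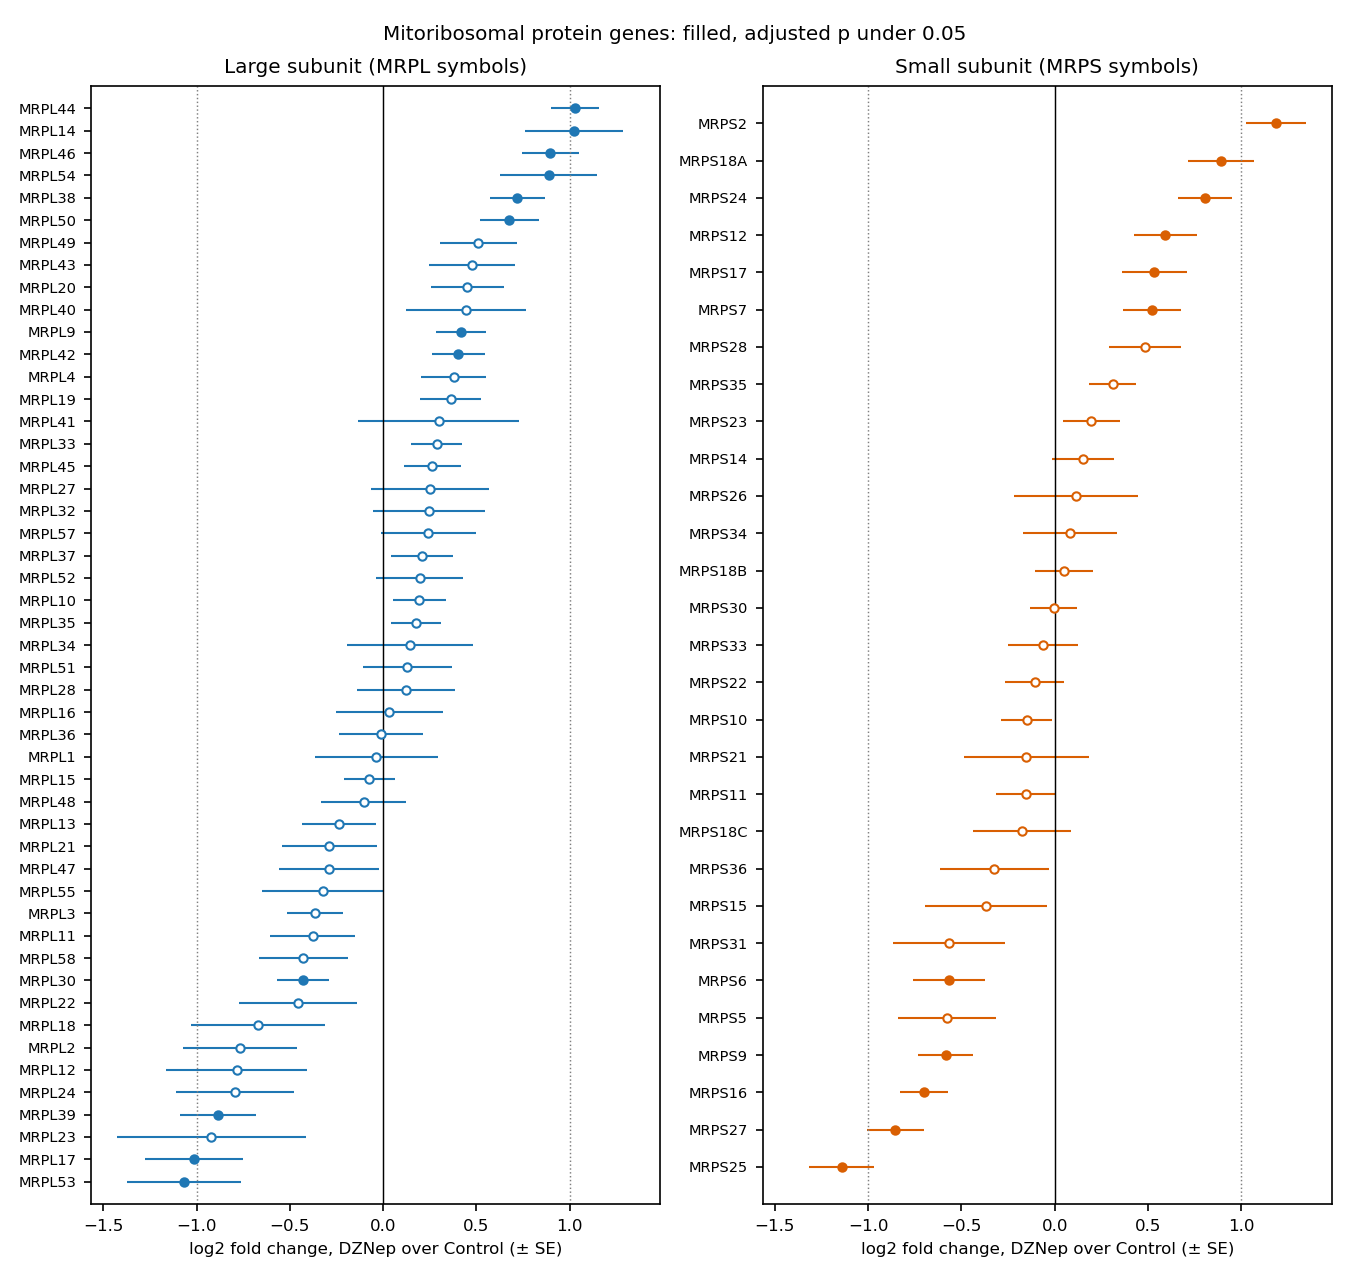
The horizontal axis gives the log2 fold change of DZNep over Control with its standard error for each of the 49 MRPL genes (left) and 29 MRPS genes (right), 4 libraries a group, and filled points have an adjusted p under 0.05. Called genes lie at both ends in both subunits, and the dotted lines mark log2 fold changes of 1 and -1, which 3 members passed on each side.

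Libraries with the same replicate number were treated as pairs in a second fit, although the labels do not state that these cultures were paired. Taking that number into the fit as a block raised the number of calls from 23 to 46. With the block 23 members were called lower and 23 higher, against 30.2% and 28.8% of all genes tested. The block added 23 members to the calls, 14 of them lower and 9 higher, removed none and turned none to the opposite direction. Counted by pair, 23 members were lower in DZNep in all 4 pairs, 30 were higher in all 4, and 25 were mixed. These counts by pair were not set against all genes tested. Leaving out DZNep replicate 4 gave 14 members lower, and leaving out Control replicate 3 gave 8 higher. The counts without single libraries, too, were not set against all genes tested.

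Among the members that fell, MRPS25 (ENSG00000131368, chr3:15009611-15065339, minus strand), a small-subunit protein without a bacterial counterpart, changed most. Its normalized counts were 3311, 2487, 2481 and 3069 in Control replicates 1 to 4 and 1310, 1136, 1127 and 1669 in the DZNep replicates. All 4 DZNep libraries lay below all Control libraries, with a log2 fold change of -1.14 ± 0.18 (SE, edgeR adjusted p = 6.14e-04). Across its annotated exons 39.1% of bases are shared with NR2C2 on the opposite strand, and NR2C2 had a log2 fold change of 0.48 (edgeR adjusted p = 0.129).

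MRPL17 (ENSG00000158042, chr11:6680385-6683340, minus strand), the counterpart of bacterial ribosomal protein L17, had 5502, 2800, 3361 and 6001 normalized counts in Control and 2190, 2047, 1790 and 2895 in DZNep. The groups met at their edges, because Control replicates 2 and 3 were far below Control replicates 1 and 4 and DZNep replicate 4 exceeded Control replicate 2. The log2 fold change was -1.01 ± 0.26 (SE, edgeR adjusted p = 0.0110), and the exact two-sided permutation test on the 4 against 4 libraries gave p = 0.0571, where 0.0286 is the smallest value this design allows.

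MRPL53 (ENSG00000204822, chr2:74471982-74472687, minus strand), a large-subunit protein without a bacterial counterpart, showed the same arrangement at a lower level. Its normalized counts were 445.5, 216.9, 284.0 and 583.4 in Control and 182.3, 157.1, 158.9 and 246.4 in DZNep, and DZNep replicate 4 lay above Control replicate 2. The log2 fold change was -1.07 ± 0.31 (SE, edgeR adjusted p = 0.0182), and over the other fits the adjusted p ranged from 1.38e-04 to 0.0556. CCDC142 shares 72.8% of its exon bases on the same strand and had a log2 fold change of -0.89 (edgeR adjusted p = 0.0225), so the counts of this pair may not be separate measurements.

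The other members called lower changed by less. MRPL39, of the large subunit, averaged 2183 ± 455 normalized counts in Control and 1204 ± 268 in DZNep (SD, n = 4), a log2 fold change of -0.89 ± 0.20 (SE). MRPS27, a pentatricopeptide-repeat protein of the small subunit, averaged 3904 ± 683 and 2199 ± 81.7, a log2 fold change of -0.85 ± 0.15. MRPS16, the counterpart of bacterial S16, had 4662, 4443, 4164 and 4356 normalized counts in Control and 2795, 2817, 2417 and 3005 in DZNep. These 3 genes did not overlap between the groups (edgeR adjusted p = 0.00598, 0.00144 and 0.00170). The log2 fold changes of MRPS9, MRPS6 and MRPL30 were -0.58, -0.57 and -0.43, and in MRPS6 one DZNep library exceeded the lowest Control library.

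At the other end stood MRPS2 (ENSG00000122140, chr9:135499984-135504673, plus strand), the counterpart of bacterial S2. It had 3318, 3110, 3012 and 3918 normalized counts in Control and 8262, 7430, 6347 and 8986 in DZNep. Every DZNep library was more than 1.5 times the highest Control library, and the log2 fold change was 1.19 ± 0.16 (SE, edgeR adjusted p = 3.04e-04). MRPL44 (ENSG00000135900, chr2:223957463-223967714, plus strand), a large-subunit protein with an RNase III-like fold, rose from 1542, 1831, 1671 and 1675 to 3599, 3430, 3156 and 3809 normalized counts. Its libraries were close within each group, and the log2 fold change of 1.03 had the smallest error of the 6 genes past both thresholds (SE 0.13, edgeR adjusted p = 2.00e-04).

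MRPL14 (ENSG00000180992, chr6:44113451-44127452, minus strand), the counterpart of bacterial L14 at the interface of the subunits, had 3088, 2044, 2058 and 3955 normalized counts in Control and 5647, 5405, 4156 and 7950 in DZNep. The lowest DZNep library stood only just above the highest Control library, and the log2 fold change was 1.03 ± 0.26 (SE, edgeR adjusted p = 0.0106). MRPL54, a large-subunit protein without a bacterial counterpart, showed the same replicate pattern, with 1717, 958.0, 1079 and 1904 normalized counts in Control and 2600, 2456, 1968 and 3651 in DZNep. Its log2 fold change was 0.89 ± 0.26 (SE, edgeR adjusted p = 0.0207, range over the other fits 2.60e-05 to 0.0572).

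MRPS12, whose bacterial counterpart S12 lines the decoding site, rose from 1396 ± 223 to 2149 ± 351 normalized counts (SD, n = 4; log2 fold change 0.59, edgeR adjusted p = 0.0174). MRPS24, MRPL38, MRPL50, MRPS17, MRPS7, MRPL9 and MRPL42 rose by 0.81, 0.72, 0.68, 0.53, 0.52, 0.42 and 0.40 on the log2 scale, and none of them overlapped between the groups. The other fits, here and above, leave out edgeR's glmTreat, which is given below. In 9 of the 23 called members the adjusted p rose over 0.05 in at least 1 of the other fits. These were MRPL53 and MRPL54, with the values given above, and MRPS6, MRPL30, MRPS12, MRPS7, MRPS17, MRPL9 and MRPL42, whose highest adjusted p-values in edgeR, DESeq2 or limma were 0.114, 0.144, 0.0531, 0.0699, 0.0823, 0.111 and 0.143. MRPS24 was the steadiest of all members in Control, where its 4 libraries lay between 1447 and 1514 normalized counts. Over the 78 members, the DZNep libraries lay wholly above the Control libraries in 18 and wholly below in 6, against 19.2% and 19.4% of the genes in the normalized table. Past both an adjusted p of 0.05 and an absolute log2 fold change of 1 were the 3 members named first on each side, against 10.6% of all genes higher and 13.5% lower. With the replicate block 3 higher and 1 lower passed both, against 11.7 and 14.3%. Without DZNep replicate 4 the counts were 1 higher and 7 lower, without DZNep replicate 3 they were 5 and 1, and without Control replicate 1 or 4 or DZNep replicate 1 or 2 a single member was lower. These counts were not set against all genes tested in the same fits. edgeR's glmTreat, which tests whether a log2 fold change exceeds 1 in size, called none of the members and 4.91% of all genes higher and 5.56% lower, and MRPS2 alone had an unadjusted p under 0.05.

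**Figure D2:**
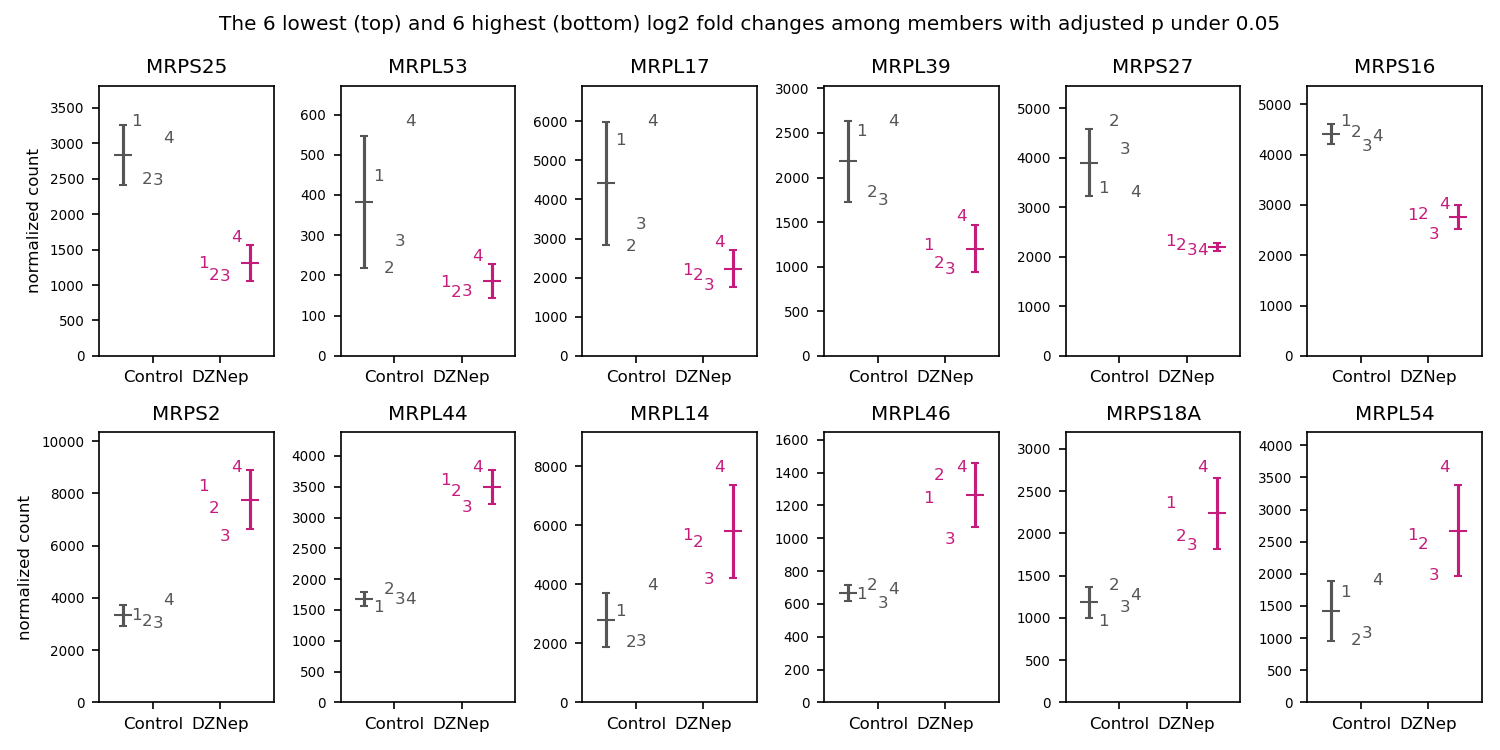
Normalized counts of the 6 members with the lowest (top) and the 6 with the highest log2 fold change (bottom) among those with an adjusted p under 0.05, each digit 1 library at its replicate number, with the mean and SD of the 4 libraries beside them. In MRPL17 and MRPL53 digit 4 of DZNep stands above digit 2 of Control, and in the other 10 genes the groups do not overlap.

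Replicates 1 and 4 stood above replicates 2 and 3 in most of the members. In 51 of 78 both Control replicates 1 and 4 exceeded both Control replicates 2 and 3, against 35.9% of the genes in the normalized table, and in 58 the same held among the DZNep libraries, against 28.0% of those genes. Control replicate 4 was the highest Control library in 50 members, replicate 2 in 19, replicate 1 in 8 and replicate 3 in 1. The ratio of the highest to the lowest Control library ranged from 1.05 in MRPS24 to 4.10 in MRPL23, and it was over 2 in 22 members. Its median was 1.60, against 1.77 over all genes tested. Together the members took 0.627, 0.506, 0.516 and 0.619% of the reads of Control replicates 1 to 4 and 0.622, 0.577, 0.533 and 0.724% of those of the DZNep replicates. The replicates with the higher share of mitochondrially encoded reads were also those with the higher share of mitoribosomal protein reads, in both groups. With mitochondrially encoded reads left out of the total the shares were 0.680, 0.522, 0.533 and 0.717% in Control and 0.669, 0.603, 0.557 and 0.805% in DZNep. The part of cell state, RNA quality or library preparation in this pattern was not tested.

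The spread between Control libraries was wider in members with short transcripts. Spearman's rho between the length of the canonical transcript and the ratio of the highest to the lowest Control library was -0.43 over the 78 members, all measured in the same 4 libraries, whereas rho between length and the log2 fold change was -0.10. MRPL23, chosen after its values were seen, whose bacterial counterpart lies at the exit of the peptide tunnel, had 3530, 1209, 1206 and 4945 normalized counts in Control and 1544, 892.4, 879.2 and 2559 in DZNep. Each DZNep library was below its own Control replicate, but the groups overlapped widely. Without the block the log2 fold change was -0.92 ± 0.51 (SE, edgeR adjusted p = 0.174), and with it -0.79 (edgeR adjusted p = 1.72e-04).

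MRPL12, the stalk protein that in bacteria recruits translation factors, had 4512, 2047, 2394 and 5850 normalized counts in Control and 2198, 1504, 1518 and 3548 in DZNep. It too was lower in each pair with overlapping groups, with an edgeR adjusted p of 0.124 without the block (log2 fold change -0.79) and 8.97e-05 with it (-0.74). MRPL24 and MRPL2, chosen after their values were seen, had log2 fold changes of -0.79 and -0.77 and adjusted p-values of 0.0697 and 0.0690 in edgeR, which became 1.18e-04 and 1.64e-04 with the block. MRPL41, the member with the highest level per kilobase, had 7352, 2752, 2664 and 9369 normalized counts in Control and 6606, 5341, 4693 and 11154 in DZNep, and its log2 fold change was 0.30 ± 0.43 (SE). MRPL41 was lower in pair 1 and higher in the other 3 pairs, and without DZNep replicate 4 its log2 fold change was -0.02.

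**Figure D3:**
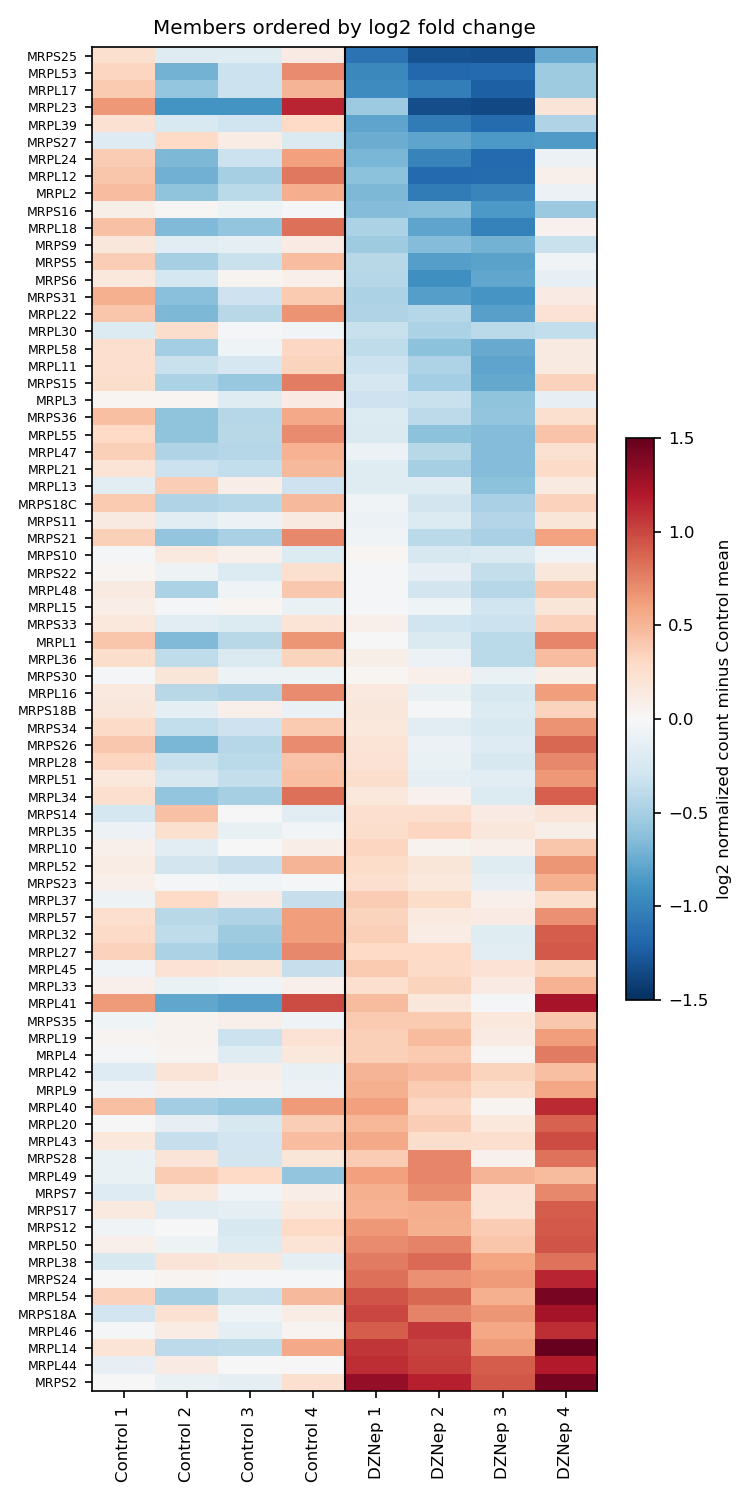
Each row is a member and each column a library, coloured by the log2 normalized count minus the mean of the 4 Control libraries (scale -1.5 to 1.5, values beyond it at the end colours), with rows ordered by log2 fold change. Control replicates 1 and 4 are redder than replicates 2 and 3 in 51 of the 78 rows, and the same split recurs among the DZNep columns in 58 rows.

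Levels of the members were compared per kilobase of canonical transcript, on the scale of normalized counts. The Control means ran from 346 per kilobase in MRPL19 to 9509 in MRPL41, a 27.4-fold range, with a median of 1679. MRPL41, MRPS34 and MRPL18 were the highest, at 9509 ± 5783, 7610 ± 2069 and 6826 ± 3437 (SD, n = 4). These 3 were measured in the same libraries, so the SDs cannot decide their order, which was not tested. MRPL19, MRPL42 and MRPS23 were the lowest, at 346 ± 51.3, 354 ± 43.8 and 417 ± 15.2, and their canonical transcripts of 7825, 15557 and 5609 bases were among the long ones. MRPL42 was called higher, with a log2 fold change of 0.40, and the other 5 of these genes were not called. With the block MRPL41 and MRPL19 were also called higher (0.44 and 0.37, edgeR adjusted p = 0.0268 and 0.00902) and MRPL18 lower (-0.58, edgeR adjusted p = 0.00162).

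The genes of the large and small subunits were compared by their medians. Of the 49 MRPL genes 8 were called higher and 4 lower (16.3 and 8.16%), and of the 29 MRPS genes 6 and 5 (20.7 and 17.2%). Over all genes tested 19.1% were called higher and 21.8% lower. With the block 15 MRPL genes were called in each direction (30.6%) and 8 MRPS genes in each (27.6%). The shares of all genes tested were then 28.8% higher and 30.2% lower. The median ratio of the highest to the lowest Control library was 1.78 for the MRPL and 1.34 for the MRPS genes. The median log2 fold change was 0.14 for the large and -0.06 for the small subunit, a difference of 0.20. Within the 4 replicate pairs that difference was 0.07, 0.12, 0.24 and 0.05 (SD of these values 0.09). It was positive in each pair and below 0.20 in all but the third. Leaving out single libraries gave 0.11 (without DZNep replicate 4) to 0.25. The large subunit's own median was -0.05 without DZNep replicate 4 and 0.01 without Control replicate 3. Symbols do not follow structure in a few cases, since the products of MRPS30 and MRPS18A sit in the large subunit and that of MRPS36 belongs to the 2-oxoglutarate dehydrogenase complex. With subunits assigned by structure the difference was 0.23. The quartiles were -0.36 and 0.38 for the large and -0.37 and 0.31 for the small subunit.

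The members were also split by evolutionary origin, following their systematic ribosomal protein names. By these names MRPS18A and MRPS18B were counted as without a bacterial homolog, although they descend from the gene for bacterial S18. The 46 members with a bacterial homolog had a median log2 fold change of -0.11, with 7 called higher and 5 lower (15.2 and 10.9%). The 31 without had a median of 0.20, with 7 higher and 4 lower (22.6 and 12.9%), beside 19.1 and 21.8% of all genes tested. The difference of -0.31 had the same sign in all 4 pairs but was smaller in size in each, at -0.24, -0.07, -0.21 and -0.20 (SD of these values 0.08). When single libraries were left out it lay between -0.30 and -0.22 (without Control replicate 2). In the large subunit the 21 proteins without a bacterial homolog had a median of 0.30 with 7 higher, MRPS18A among them, and 2 lower (33.3 and 9.52%). The 30 with one had a median of -0.05 with 2 higher and 2 lower (6.67% each). In the small subunit the 16 with a homolog had 5 higher and 3 lower (31.2 and 18.8%) and a median of -0.15. The 10 without had none higher and 2 lower (20%) and a median of -0.01.

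MRPL45, which anchors the ribosome to the inner membrane, had 2549 ± 442 normalized counts in Control and 3118 ± 153 in DZNep (SD, n = 4), with no overlap between the groups but a log2 fold change of 0.26 ± 0.15 (SE, edgeR adjusted p = 0.197). MRPL58, a release factor-like peptidyl-tRNA hydrolase built into the large subunit, had a log2 fold change of -0.43 ± 0.24 (edgeR adjusted p = 0.178, with the block 0.0102). MRPS30 and MRPS36 had log2 fold changes of -0.01 ± 0.13 and -0.32 ± 0.29 (edgeR adjusted p = 0.976 and 0.405).

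Of the 3 MRPS18 paralogs MRPS18A was called higher and the other two were not called. They descend from the gene for bacterial S18, and MRPS18C occupies its place in the small subunit, MRPS18B another place there, and MRPS18A a place in the large subunit. MRPS18A had 962.0, 1378, 1120 and 1270 normalized counts in Control and 2351, 1960, 1855 and 2776 in DZNep, with no overlap and a log2 fold change of 0.89 ± 0.18 (SE, edgeR adjusted p = 0.00265). MRPS18B had 4321, 3452, 4046 and 3567 in Control and 4300, 3764, 3333 and 4844 in DZNep, and MRPS18C 1509, 841.0, 855.5 and 1606 and then 1112, 947.1, 819.6 and 1462. In both of these the groups overlapped throughout, with log2 fold changes of 0.05 ± 0.16 and -0.18 ± 0.26.

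Expressed as a ratio within each library, MRPS18A to MRPS18B was 0.223, 0.399, 0.277 and 0.356 in Control and 0.547, 0.521, 0.557 and 0.573 in DZNep. The DZNep ratios were all higher and close to one another. MRPS18A to MRPS18C was higher in DZNep by 1.03 on the log2 scale and MRPS18B to MRPS18C by 0.19. These ratios were chosen after the fold changes were seen and were not tested. Exon bases are shared with genes on the opposite strand in MRPS18A (RSPH9, 50.9%, log2 fold change 1.25) and in MRPS18C (ABRAXAS1, 40.2%, log2 fold change -1.43), and the sources used here do not state whether strand was used in counting.

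Such overlaps were not rare among the members. In 27 of the 78 another annotated gene covered at least 10% of the exon bases, and of these 8 were called higher and 5 lower (29.6 and 18.5%). Of the other 51 members 6 were higher and 4 lower (11.8 and 7.84%), beside 19.1 and 21.8% of all genes tested. The median log2 fold change was 0.36 with such an overlap and -0.06 without it. Of the 6 members past both thresholds, MRPL17 and MRPL14 shared no exon base with another gene, MRPS2 and MRPL44 shared at most 10.1 and 13.3% with any single gene, in both a lncRNA, which averaged 30.9 and 1.88 reads a library, and MRPS25 and MRPL53 shared the larger parts given above. Annotated pseudogenes of 36 members, 79 in all, held 0.0807% as many reads as the members themselves.

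Many members start beside another gene. A gene on the other strand starts within 1000 bases of 33 members (42.3%), and a protein-coding one within 1000 bases of 27 (34.6%), compared with 30.8 and 16.5% of the 14756 protein-coding genes tested. In 24 pairs of a member with another coding gene both were tested. Both were called in the same direction in 2 of them (MRPL14 with TMEM63B, higher, and MRPL30 with MITD1, lower), only the member in 5, only the partner in 5 and neither in 12. No pair was called in opposite directions. Among these, MRPL21 had a log2 fold change of -0.29 beside IGHMBP2 at 1.46, whose start is 28 bases away (edgeR adjusted p = 1.17e-04 for IGHMBP2), and MRPL52 had 0.20 beside SLC7A7 at 0.91, 59 bases away (edgeR adjusted p = 0.00822). These pairs were named after their values were seen.

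One further pair consists of 2 members. MRPL46 (ENSG00000259494, chr15:88459477-88467390, minus strand), a large-subunit protein with a Nudix-like fold, and MRPS11 (ENSG00000181991, chr15:88467453-88480776, plus strand), the counterpart of bacterial S11, start 63 bases apart in GENCODE and are read away from each other. MRPL46 had 658.3, 715.1, 602.0 and 685.4 normalized counts in Control and 1245, 1384, 994.1 and 1430 in DZNep, and MRPS11 had 1975, 1595, 1688 and 1977 and then 1700, 1567, 1330 and 2035. MRPL46 rose without overlap (log2 fold change 0.90 ± 0.15, SE, edgeR adjusted p = 0.00107), while the MRPS11 groups overlapped (-0.15 ± 0.16, edgeR adjusted p = 0.480). The ratio of MRPL46 to MRPS11 was 0.333, 0.448, 0.357 and 0.347 in Control and 0.732, 0.883, 0.747 and 0.703 in DZNep. All 4 DZNep ratios were above all Control ratios, a difference of 1.05 on the log2 scale. This pair was chosen after both fold changes were seen, and the ratio was not tested.

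The sequence before the starts was read for letters that resemble the preferred sites of the factors named at the outset. RefSeq windows on GRCh38.p14, from 250 bases before the start to 50 after it, were matched to 69 of the 78 members. CCGGAAG, the core of an ETS site, was present on either strand in 30 windows (43.5%), against 18.2% of 11529 windows of protein-coding genes tested and 10.3% of all 35116 windows. AAGATGGC, the core of a YY1 site, was in 21 (30.4%, against 5.20 and 2.89%). NRF1-type letters, searched as GCGCA and GCGC with 1 free base between them, were in 9 (13.0%, against 11.1 and 5.78%), the E-box CACGTG in 5 (7.25%, against 9.84 and 7.26%) and CCAAT in 20 (29.0%, against 36.6 and 34.6%). None of the first 3 motifs contains another, and 48 windows (69.6%, against 30.5% of the coding genes tested) held at least 1 of them.

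YY1-type letters had a preferred place. Of their 22 matches in the members 18 were on the strand of the gene, and 16 began within the first bases after the start, at a median position of 12 over all matches and at most 36. By contrast only 5 of the 40 ETS-type matches began after the start. Among the called members the YY1-type letters were in 8 of 14 windows of those higher and 1 of 9 of those lower, and in 12 of the 46 windows of members not called. ETS-type letters were in 4 of the 14, 3 of the 9 and 23 of the 46. These counts are small, the same split was not made over all genes, and a link between the letters and the calls was not tested. A match is a description of the letters and was not measured as binding. The letters AAGATGGC contain ATG, and whether matches after the start span the start codon of the protein was not examined.

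The following windows are shown for these positions, written 5′ to 3′ on the strand of the gene with the ETS-, NRF1- and YY1-type matches in capitals. MRPL38 (chr17:75904835-75905134), MRPS18A (chr6:43687742-43688041) and MRPL46 (chr15:88467339-88467638) were called higher and carry AAGATGGC 7, 10 and 9 bases into the transcript. MRPS27 (chr5:72320191-72320490) carries the same letters at base 17 and was called lower. MRPL53 (chr2:74472631-74472930) and MRPL17 (chr11:6683291-6683590), also lower, have ETS-type and NRF1-type letters. All 6 genes lie on the minus strand.
MRPL38: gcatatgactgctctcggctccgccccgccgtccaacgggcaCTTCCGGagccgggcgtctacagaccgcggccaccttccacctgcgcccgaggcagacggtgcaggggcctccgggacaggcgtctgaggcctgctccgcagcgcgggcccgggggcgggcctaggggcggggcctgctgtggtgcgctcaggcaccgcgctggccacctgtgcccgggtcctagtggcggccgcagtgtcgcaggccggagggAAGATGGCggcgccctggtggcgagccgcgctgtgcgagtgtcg
MRPS18A: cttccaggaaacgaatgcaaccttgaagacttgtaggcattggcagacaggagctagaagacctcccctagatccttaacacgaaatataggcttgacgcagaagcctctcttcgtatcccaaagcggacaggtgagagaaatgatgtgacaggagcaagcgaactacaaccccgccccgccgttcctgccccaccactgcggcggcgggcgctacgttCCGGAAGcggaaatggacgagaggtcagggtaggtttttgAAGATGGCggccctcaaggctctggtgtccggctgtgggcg
MRPL46: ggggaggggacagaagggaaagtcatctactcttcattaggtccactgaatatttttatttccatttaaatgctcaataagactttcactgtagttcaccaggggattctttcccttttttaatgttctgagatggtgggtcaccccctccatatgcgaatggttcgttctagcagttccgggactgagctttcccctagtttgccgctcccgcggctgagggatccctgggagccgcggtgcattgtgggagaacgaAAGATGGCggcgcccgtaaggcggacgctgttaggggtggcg
MRPS27: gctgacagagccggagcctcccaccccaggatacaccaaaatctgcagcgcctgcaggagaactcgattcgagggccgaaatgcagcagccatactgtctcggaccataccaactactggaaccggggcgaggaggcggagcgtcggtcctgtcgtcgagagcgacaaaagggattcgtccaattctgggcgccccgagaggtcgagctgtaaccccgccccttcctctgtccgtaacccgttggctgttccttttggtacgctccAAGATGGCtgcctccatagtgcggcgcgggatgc
MRPL53: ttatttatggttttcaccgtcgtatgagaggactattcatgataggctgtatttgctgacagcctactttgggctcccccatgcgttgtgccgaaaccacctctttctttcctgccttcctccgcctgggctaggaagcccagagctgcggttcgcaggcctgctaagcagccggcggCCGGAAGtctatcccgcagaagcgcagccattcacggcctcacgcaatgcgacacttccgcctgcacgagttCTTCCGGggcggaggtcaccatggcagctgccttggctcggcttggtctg
MRPL17: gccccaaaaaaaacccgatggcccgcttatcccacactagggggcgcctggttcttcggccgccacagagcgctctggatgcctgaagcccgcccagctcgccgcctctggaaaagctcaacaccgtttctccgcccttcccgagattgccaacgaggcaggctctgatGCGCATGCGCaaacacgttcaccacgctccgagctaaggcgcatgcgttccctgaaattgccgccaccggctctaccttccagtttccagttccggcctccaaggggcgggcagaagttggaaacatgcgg
The MRPL46 window also holds the GENCODE start of MRPS11, whose counts did not pass the test. The RefSeq window of MRPS11 is chr15:88467458-88467757, and the RefSeq start in it lies outside the MRPL46 window.

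The transcripts of the factors themselves were read from the same fit. NRF1 had a log2 fold change of -0.26 ± 0.14, YY1 of 0.23 ± 0.15, MYC of -0.22 ± 0.20 and PPARGC1A, a coactivator of mitochondrial biogenesis, of 0.21 ± 0.33 (SE), and none passed the test (edgeR adjusted p = 0.163, 0.257, 0.415 and 0.653). GABPA, the DNA-binding subunit of the ETS factor GABP, had 0.52 ± 0.26 (edgeR adjusted p = 0.141, with the block 0.00116). GABPB2, one of its partner subunits, averaged 1005 ± 377 normalized counts in Control and 276.5 ± 65.1 in DZNep (SD, n = 4; log2 fold change -1.89, edgeR adjusted p = 6.33e-04), and the nuclear receptor gene ESRRA also fell (log2 fold change -1.09).

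The other genes that serve mitochondrial translation were grouped in 6 lists. Over these lists with 85 genes, 24 were lower and 12 higher (28.2 and 14.1%, against 21.8 and 19.1% of all genes tested), and the median log2 fold change was -0.22. With the block 35 were lower and 21 higher (41.2 and 24.7%, against 30.2 and 28.8%). Of the 18 translation factors 7 were lower and 1 higher (38.9 and 5.56%, beside the same 21.8 and 19.1%), with a median of -0.39. MTRFR and MTRES1, which act on stalled ribosomes, had log2 fold changes of -1.66 and -1.47. MTFMT, which formylates the initiator tRNA, averaged 757 ± 103 normalized counts in Control and 255.3 ± 26.9 in DZNep (SD, n = 4; log2 fold change -1.59, edgeR adjusted p = 5.74e-05). The release factor gene MTRF1L rose (1.22).

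Of the 30 assembly factors 9 were lower and 8 higher (30.0 and 26.7%, against 21.8 and 19.1% of all genes tested). The rRNA-processing nuclease gene YBEY and the rRNA methyltransferase gene MRM1 fell (log2 fold changes -1.64 and -0.98), and the pseudouridine synthase gene TRUB2 and the GTPase gene GTPBP8 rose (1.39 and 0.94). Among 10 genes that copy and transcribe mitochondrial DNA POLG2 fell (-0.75), and TEFM and TWNK rose (0.76 and 0.56). Of 12 chaperone and protease genes 4 were lower and 1 higher (33.3 and 8.33%), with AFG3L2 and HSPD1 at -1.12 and -0.98, and GRPEL2 rose (0.72). DAP3, a GTP-binding small-subunit protein without an MRP symbol, fell (-0.80) and was the only gene called of the 5 such proteins, and with the block CHCHD1 was called higher as well (0.62, edgeR adjusted p = 3.64e-04).

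The cytosolic ribosomal protein genes had a lower median. Of these 86 genes 25 were lower and 2 higher (29.1 and 2.33%, against 21.8 and 19.1% of all genes tested), with a median log2 fold change of -0.60, and with the block 69 were lower (80.2%, against 30.2%). The lower count ran from 6 without DZNep replicate 3 to 50 without DZNep replicate 4, a range not set against all genes tested. Of 81 nuclear genes for respiratory chain subunits 7 were lower and 2 higher (8.64 and 2.47%), with a median of -0.24, and with the block 31 were lower and 8 higher (38.3 and 9.88%). Both groups varied more among the Control libraries than the mitoribosomal genes, with a median ratio of the highest to the lowest library of 2.02 and 2.05 against 1.60. No test of the difference between these groups of genes was made.

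**Figure D4:**
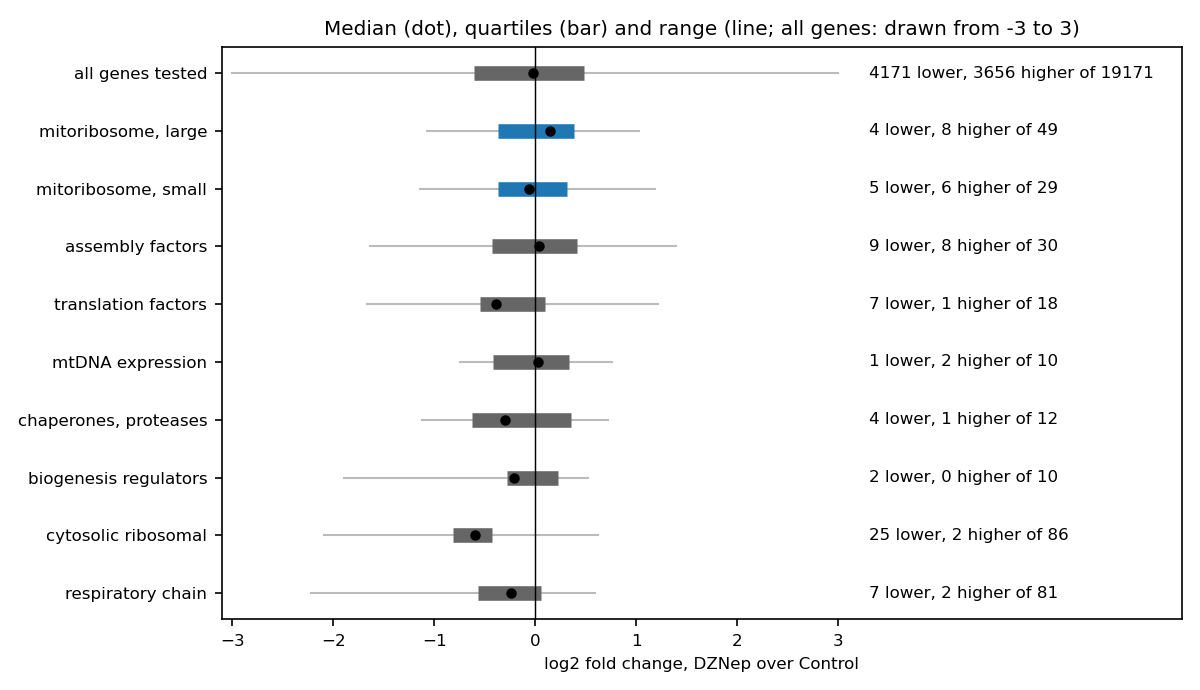
The horizontal axis gives the log2 fold change of DZNep over Control for each group of genes, as the median (dot), quartiles (bar) and range (line), with the counts called at an adjusted p under 0.05 at the right; the range of all genes is drawn only from -3 to 3. The large and small mitoribosomal subunits have medians of 0.14 and -0.06, the cytosolic ribosomal protein genes -0.60.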

How the data were processed

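RNA from 4 Control and 4 DZNep cultures was sequenced as paired 150 bp reads, trimmed with Trimmomatic 0.36, mapped to GRCh38 with STAR 2.5.2b and counted over exons with featureCounts (Subread 1.5.2) by the authors, who deposited raw counts for 57500 genes and normalized counts (signal, raw counts divided by 1 size factor per library) for 19118. The annotation release and the strand setting are not given in the sources used here. Symbols of 56410 identifiers came from GENCODE release 44.

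Raw counts were tested with edgeR 4.0.16 (R 4.3.3; TMM, filterByExpr, quasi-likelihood, treatment only), Benjamini-Hochberg over 19171 genes, and the fit was tested on simulated data. Deviations of same-numbered libraries from their group means correlated at 0.136, 0.492, 0.429 and 0.673 in replicates 1 to 4, so the fit with the replicate block is also given. The same correlation was not computed between libraries with different numbers, so these values have no comparison. Alternatives were DESeq2 1.42.0, limma 3.58.1 (pseudocount 1), edgeR's glmTreat, other scalings and filters and leaving out each library. p-values measure the spread between these cultures. Depth limits counting error only.

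The members and lists were chosen with earlier results of these data known. Members were named if past both thresholds, among the 6 lowest or highest called, MRPS18 paralogs, of special role, or the 3 highest or lowest per kilobase. For each list up to 2 genes called at either end were named. The remaining called members were named after their values were seen. The proteomic data of the study were not analysed here.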

Additional observations from a re-analysis of the deposited data

Results flagged for a closer look

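Control replicate 2 of MRPS30 had 2917 normalized counts while the other 3 Control libraries lay between 2433 and 2507, a gap of 0.848 of the whole range. It was the only one of 52 groups of 4 libraries of the 26 named members to exceed Dixon's 95% critical value, where about 1 in 20 would do so by chance.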

How the results depend on the processing

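The members called lower numbered 23 with the replicate block instead of 9 and those called higher 23 instead of 14. Past both thresholds the 3 lower members became 1 with library sizes alone, with limma and with the replicate block, and glmTreat called 0 lower and 0 higher (1 member had an unadjusted p under 0.05 in glmTreat, 30 in the quasi-likelihood test). Leaving out each library gave 6 to 14 members lower (14 without DZNep replicate 4) and 8 to 15 higher (8 without Control replicate 3), past both thresholds 1 to 7 lower and 1 to 5 higher, and no called member changed sign. The members' median then ran from -0.13 to 0.17, the large subunit's from -0.054 to 0.25, the small subunit's from -0.16 to 0.03, the difference between them from 0.11 to 0.25, and that between members with and without a bacterial homolog from -0.30 to -0.22. For the 6 lists the lower count was 15 without the filter, the higher count 21 with the block, and leaving out libraries gave 16 to 24 lower and 6 to 12 higher. The cytosolic ribosomal lower count was 69 with the block and 6 to 50 without single libraries, and the higher count 1 without the filter and 1 to 2. The respiratory chain lower count was 11 without the filter, 31 with the block and 5 to 15 without single libraries, and the higher count 4 with library sizes alone, 4 with DESeq2, 8 with the block and 1 to 4. Signs of values near 0 turned in MRPS30 (0.018 with median-ratio factors, 0.067 with library sizes alone, 0.015 without the filter, 0.026 with at least 10 reads in every library, 0.022 with DESeq2, 0.024 with limma) and, leaving out single libraries, in MRPS30 (-0.037 to 0.056), MRPL41 (-0.016 to 0.67), MRPS18B (-0.037 to 0.14) and MRPS34 (-0.13 to 0.22). Of the other comparisons of the named members 378 kept direction and side of the threshold, 14 fell short of it and 9 newly passed. Counts without single libraries were not set against all genes tested in the same fits. The causes were not tested.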
